A study of Mus musculus with 12 samples.

Results

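The receptors of the common gamma chain family and the thymic stromal lymphopoietin (TSLP) receptor chain were followed in RNA of conventional dendritic cells (cDCs) of the mouse spleen. The members were the 9 genes Il7r, Il2ra, Il2rb, Il2rg, Il4ra, Il9r, Il15ra, Il21r and Crlf2, found by their symbols among the 55322 genes of the deposited expression table, where each symbol has 1 row. Levels are FPKM, in which reads are divided by the length of the gene and the size of the library, so they can be compared between genes. Genes that reached 1 FPKM in 3 or more of the 12 libraries were tested, which kept 12434. Of the 9 members 8 passed it and Il2ra did not.

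Il2rg encodes the common gamma chain, which the receptors for IL-2, IL-4, IL-7, IL-9, IL-15 and IL-21 share. It pairs with a chain that gives the receptor its cytokine: Il7r for IL-7, Il4ra for IL-4, Il9r for IL-9, Il21r for IL-21, and Il2rb for both IL-2 and IL-15. Il2ra and Il15ra encode the alpha chains that bind IL-2 and IL-15, and Crlf2 encodes the chain that joins the Il7r product to form the TSLP receptor in place of the gamma chain. The gamma chain carries the kinase JAK3 and its partner chains carry JAK1, and the signal passes to STAT proteins. Dendritic cells are known for presenting IL-15 on the Il15ra product to NK and T cells, and for responding to TSLP.

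The 4 groups of 3 libraries each were, among cDC1, L-cDC1 and M-cDC1, and, among cDC2, L-cDC2 and M-cDC2, and the letters L and M are used as the titles give them. The title of the series names cDCs of lymphoid origin, and cDC1 and cDC2 are the main subsets of cDC. All 12 libraries carry the genotype label Il7r-cre; Rosa26-lsl-tdTomato, in which Cre driven from the Il7r locus switches on a red reporter in cells that expressed Il7r or descend from such cells. The growth protocol names WT C57BL/6J mice kept in SPF conditions and used at 7-8 weeks, and the design text calls the animals naïve. No label says which libraries were sorted by reporter colour, or whether the Cre allele alters the Il7r transcript that was measured. The labels do not tie replicates to separate animals either, so the tests compare libraries, whose spread may be technical. Library totals ran from 15879864 to 24498235 reads. The subset labels held in the marker genes: all 8 cDC1 markers, such as Xcr1 and Clec9a, were called higher in cDC1, and all 8 cDC2 markers, such as Sirpa and Irf4, were called lower in cDC1, both among L and among M libraries. RNA of other cells was present too, with summed levels of 11 B cell markers at 593 to 937 FPKM in the L-cDC1 libraries, 304 to 352 in M-cDC1, 900 to 3353 in L-cDC2 and 352 to 377 in M-cDC2.

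In the deposited table Il7r lies at chr15:9505874-9530262 and Il2rb at chr15:78363456-78379471, both on the minus strand. Il2ra (chr2:11647618-11698004) is followed on the same strand by Il15ra (chr2:11710101-11739128), and Il4ra (chr7:125151292-125178646) by Il21r (chr7:125202601-125232742). Il2rg lies at chrX:100307984-100311861, Il9r at chr11:32137541-32150279 and Crlf2 at chr5:109702575-109706859. The build behind these coordinates is not given in the sources used here. All 9 are protein-coding genes. The exons of Il2rg overlap Gm20489, which had 0 to 1 reads per group, and those of Il4ra overlap the lncRNA Gm44876 on the other strand, which had 11 reads in L-cDC1 and 0 to 1 in each other group. The library kits named in the labels do not mark strand, so reads of such a pair cannot be told apart, but these numbers are small beside at least 2313 reads of Il2rg and 4977 of Il4ra per group.

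On the log2(FPKM + 1) scale of the tests, the 3 members with the largest differences between cDC1 and cDC2 in both L and M libraries were Il2rg, Il21r and Il7r, and their promoters are shown for that reason. By ratio of mean FPKM the order was another, and Il9r, with 2 reads in M-cDC1, stood first among M libraries and above Il2rg and Il21r among L libraries. The RefSeq table for mouse build GRCm38.p6 held a promoter for 8 of the 9 members. Each sequence is the 250 bases before the annotated start, 5′ to 3′ on the gene's strand, at chrX:101268256-101268505 (minus strand) for Il2rg, chr7:125603179-125603428 (plus strand) for Il21r and chr15:9529877-9530126 (minus strand) for Il7r. Capitals mark GGAA and its reverse complement TTCC, the core recognised by Ets family factors such as PU.1.
Il2rg: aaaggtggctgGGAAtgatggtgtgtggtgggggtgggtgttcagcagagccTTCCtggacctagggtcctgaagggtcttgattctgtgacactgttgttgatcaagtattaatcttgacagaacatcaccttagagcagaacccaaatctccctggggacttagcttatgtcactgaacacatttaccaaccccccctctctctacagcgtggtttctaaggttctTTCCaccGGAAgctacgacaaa
Il21r: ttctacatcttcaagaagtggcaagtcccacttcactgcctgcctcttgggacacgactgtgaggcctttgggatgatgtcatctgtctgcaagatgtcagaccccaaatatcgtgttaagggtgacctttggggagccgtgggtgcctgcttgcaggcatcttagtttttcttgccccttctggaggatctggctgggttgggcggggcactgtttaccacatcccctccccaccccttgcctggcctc
Il7r: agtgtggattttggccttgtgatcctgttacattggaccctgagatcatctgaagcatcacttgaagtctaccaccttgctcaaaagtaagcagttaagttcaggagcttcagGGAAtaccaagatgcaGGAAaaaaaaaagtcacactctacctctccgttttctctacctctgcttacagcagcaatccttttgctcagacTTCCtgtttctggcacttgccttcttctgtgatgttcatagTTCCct
The core occurred 4 times in the Il2rg window, 0 times in that of Il21r and 4 times in that of Il7r, and 93.4% of 32851 promoter windows of this length held it at least once. The STAT motif TTCNNNGAA, which reads the same on both strands, occurred once in the Il7r window, at position -142 from the start and overlapping one of the capitalised cores, and in 7.02% of all windows. These matches describe letters only, and windows with 0 matches say nothing of the factors.

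**Figure D1:**
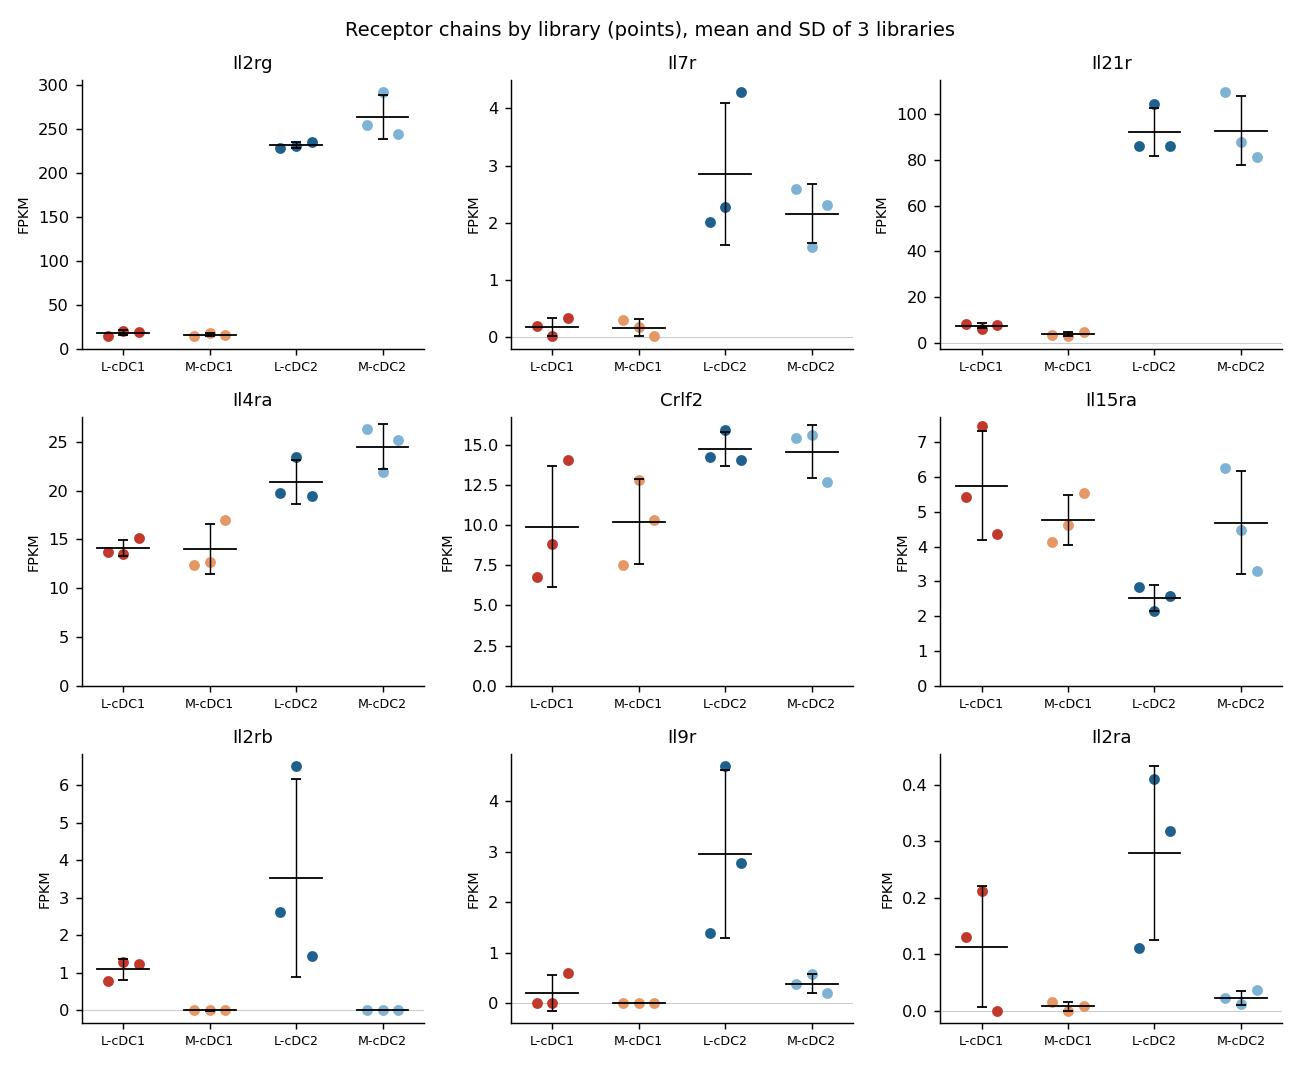
Level in FPKM (y axis, linear, a scale of its own in each panel) of the 9 receptor genes in the 3 libraries of each group (points), with the mean and SD. Il2rg, Il21r and Il7r stand far higher in both cDC2 groups than in either cDC1 group, whereas Il2rb is at or near 0 in both M groups.

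Between the subsets, the shared chain and most of its partner chains were lower in cDC1 than in cDC2. Il2rg and Il21r differed by over 3 units of log2, Il7r by over 1 unit and Il4ra by less than 1 unit, among L and among M libraries alike. Il15ra went the other way in L libraries, where it was higher in L-cDC1. Il9r and Il2rb were called lower in L-cDC1 than in L-cDC2 and were not called among M libraries, and Crlf2 was not called in either.

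Il2rg, the gamma chain, had 14.6, 19.5 and 19.3 FPKM in the L-cDC1 libraries, 14.0, 17.7 and 15.4 in M-cDC1, 229, 231 and 235 in L-cDC2, and 255, 292 and 245 in M-cDC2. All 6 cDC2 libraries stood above all 6 cDC1 libraries, and within each subset the L and M values lay close. The cDC1 minus cDC2 difference was -3.64 (SE 0.12, limma adjusted p = 3.88e-11) among L libraries and -3.99 (SE 0.12, adjusted p = 1.77e-11) among M libraries, on the log2(FPKM + 1) scale used throughout, which understates changes of genes at low levels. In every group Il2rg was the most abundant member. Its libraries overlapped in level with those of Il4ra in L-cDC1 and in M-cDC1, while in both cDC2 groups they stood apart from those of the next member, Il21r.

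Il21r, the chain for IL-21, had 8.56, 6.34 and 7.95 FPKM in the L-cDC1 libraries, 3.72, 3.03 and 4.73 in M-cDC1, 85.8, 104 and 86.1 in L-cDC2, and 110, 87.6 and 81.1 in M-cDC2. The cDC2 libraries were again all above the cDC1 libraries. The cDC1 minus cDC2 difference was -3.44 (SE 0.16, limma adjusted p = 1.01e-09) among L and -4.28 (SE 0.16, adjusted p = 1.15e-10) among M libraries. Il21r ranked second among members in both cDC2 groups, without overlap with Il2rg above it or Il4ra below it. In M-cDC1 it ranked below Il15ra, and those ranges overlapped.

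Il7r, the chain for IL-7 and, with the Crlf2 product, for TSLP, had 0.193, 0.0103 and 0.325 FPKM in the L-cDC1 libraries and 0.296, 0.18 and 0.00977 in M-cDC1. In L-cDC2 it had 2.02, 2.27 and 4.29 FPKM, and in M-cDC2 2.58, 1.58 and 2.3. The cDC1 values rest on 1 to 31 reads per library and the cDC2 values on 117 to 363. Every cDC2 library exceeded every cDC1 library, and the L and M ranges overlapped within each subset. The cDC1 minus cDC2 difference was -1.68 (SE 0.25, limma adjusted p = 0.000116) among L and -1.43 (SE 0.25, adjusted p = 0.000455) among M libraries. Of all members, Il7r was thus among the low ones: in M-cDC2 its mean of 2.16 ± 0.52 FPKM (SD, n = 3) stood below Il15ra and above Il9r without overlap with either.

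Il4ra, the chain for IL-4 and IL-13, varied less, with 13.7, 13.5 and 15.1 FPKM in the L-cDC1 libraries, 12.4, 12.7 and 17.0 in M-cDC1, 19.8, 23.4 and 19.4 in L-cDC2, and 26.4, 21.9 and 25.2 in M-cDC2. The cDC1 and cDC2 libraries did not overlap. The cDC1 minus cDC2 difference was -0.53 (SE 0.14, limma adjusted p = 0.00786) among L and -0.77 (SE 0.14, adjusted p = 0.000567) among M libraries. Among L libraries the call was lost with median-of-ratios scaling (-0.34, adjusted p = 0.0719) and with limma-voom on recovered reads (-0.37, adjusted p = 0.0576).

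Crlf2, the TSLP receptor chain, had 6.79, 8.84 and 14.1 FPKM in the L-cDC1 libraries, 7.54, 12.8 and 10.3 in M-cDC1, 14.2, 16.0 and 14.1 in L-cDC2, and 15.5, 15.6 and 12.7 in M-cDC2. The subsets overlapped. The cDC1 minus cDC2 difference was -0.58 (SE 0.22, limma adjusted p = 0.0517) among L and -0.50 (SE 0.22, adjusted p = 0.0969) among M libraries, neither called. Without L-cDC1 replicate 3, the highest cDC1 library, the difference among L libraries was -0.85 (limma adjusted p = 0.00496), and that among M libraries was also called (adjusted p = 0.0407). Leaving out M-cDC1 replicate 1 (adjusted p = 0.0411) or replicate 2 (adjusted p = 0.0448) brought the L comparison past the threshold as well.

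Il15ra, the chain that binds IL-15, had 5.41, 7.46 and 4.37 FPKM in the L-cDC1 libraries, 4.14, 4.62 and 5.54 in M-cDC1, 2.85, 2.14 and 2.58 in L-cDC2, and 6.26, 4.49 and 3.31 in M-cDC2. L-cDC2 was the low group, and its libraries overlapped with none of the others. Among L libraries Il15ra was higher in cDC1, with a difference of 0.92 (SE 0.22, limma adjusted p = 0.00424), and among M libraries the difference was 0.05 with a 95% interval of -0.42 to 0.51. It was the 1 member called in that direction.

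Of the 8 members tested, 7 were called between cDC1 and cDC2 among L libraries, 1 higher and 6 lower, against 39.5% of all genes tested (12.9% higher and 26.6% lower). The median difference of the 8 was -1.32, beside -0.19 over all genes tested. Among M libraries 4 of 8 were called, all lower (Il2rg, Il21r, Il7r and Il4ra), against 38.1% of all genes (12.7% higher and 25.4% lower), with medians of -0.64 for the 8 and -0.18 for all genes. Il7r reached 1 FPKM in cDC2 libraries only and Il9r in L-cDC2 libraries only, so both passed the filter through groups where they were high. Their part in these counts is therefore no evidence about the family. Libraries did not overlap for 1 member higher and 6 lower among L, where 16.0% and 32.7% of genes were so separated. Among M libraries they did not overlap for 0 members higher and 5 lower, where 16.9% and 34.2% of genes were so separated. Scaling bears on these shares. As deposited, 32.7% of calls among L and 33.2% among M libraries were higher in cDC1, and with median-of-ratios scaling 48.7% and 48.9%, with the median of all genes at -0.04 and -0.03. With quantile normalization the shares were 52.6% and 53.4%, and the medians 0.02 and 0.04. Under both scalings Il2rg, Il21r and Il7r stayed called lower in cDC1 among L and among M libraries, and Il15ra higher among L.

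**Figure D2:**
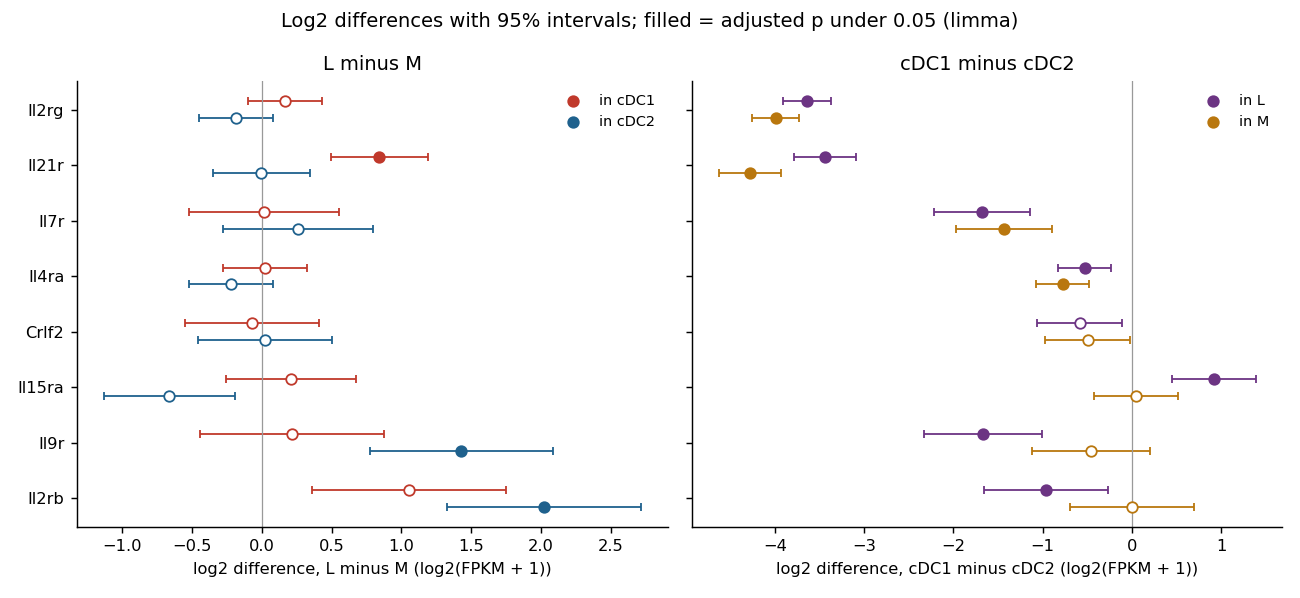
Log2 difference (x axis, log2(FPKM + 1) scale) of the 8 tested members with 95% limma intervals, L minus M on the left for each subset and cDC1 minus cDC2 on the right for L and for M. Filled points have an adjusted p under 0.05: Il21r in cDC1 and Il2rb and Il9r in cDC2 on the left, 7 in L and 4 in M on the right.

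Between L and M cells of the same subset few members differed. In cDC2, Il2rb, the signalling chain of the IL-2 and IL-15 receptors, and Il9r, the IL-9 receptor chain, were higher in L-cDC2 than in M-cDC2. In cDC1, Il21r was higher in L-cDC1 than in M-cDC1, though this call did not hold under most other settings. Il7r, whose locus drives the Cre of this strain, was not called in either subset.

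Il2rb had 0.777, 1.28 and 1.23 FPKM in the L-cDC1 libraries and 0, 0 and 0.0106 in M-cDC1. It had 2.63, 6.51 and 1.47 FPKM in L-cDC2, and 0 in each of the 3 M-cDC2 libraries. Every L library stood above every M library of its subset, and L-cDC2 above L-cDC1. In reads this was 991 in L-cDC2 against 0 in M-cDC2, at least 309.6-fold higher when a floor of 3 reads over the whole M-cDC2 group is used. In cDC1 it was 278 reads in L-cDC1 against 1 in M-cDC1, a ratio of 294.5 per unit of depth with a 95% counting interval of 52.4 to 11680. Such intervals and floors cover counting error only, since reads without molecular identifiers are not independent molecules. The L minus M difference was 2.02 (SE 0.32, limma adjusted p = 0.00357) in cDC2. It was 1.05 (SE 0.32, adjusted p = 0.226) in cDC1, where the call was made with a pseudocount of 0.1 (adjusted p = 0.0257) and with limma-voom on recovered reads (adjusted p = 0.0277). Between L-cDC1 and L-cDC2 the difference was -0.96 (SE 0.32, adjusted p = 0.0291), a call lost without L-cDC1 replicate 1 (adjusted p = 0.0881) or replicate 3 (adjusted p = 0.0517) and without L-cDC2 replicate 2 (adjusted p = 0.124), and lost with a pseudocount of 0.1, with no filter and with both other scalings.

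Il9r had 0, 0 and 0.602 FPKM in the L-cDC1 libraries and 0.00900, 0 and 0.00921 in M-cDC1. It had 1.38, 4.69 and 2.78 FPKM in L-cDC2 and 0.380, 0.573 and 0.209 in M-cDC2. The L-cDC2 libraries were all above the M-cDC2 libraries, while in cDC1 all 57 reads of the L group came from replicate 3. The L minus M difference in cDC2 was 1.43 (SE 0.31, limma adjusted p = 0.0273), from 919 reads in L-cDC2 against 111 in M-cDC2, a ratio of 7.76 (6.37 to 9.54, counting error). The call was lost with a pseudocount of 0.1 (adjusted p = 0.242), with no filter (0.0834), with limma-voom on recovered reads (0.0708) and without L-cDC2 replicate 2 (0.120) or 3 (0.0803), or M-cDC2 replicate 1 (0.0842), 2 (0.0665) or 3 (0.121), all adjusted p from limma. In cDC1 the difference was 0.22 (SE 0.31, adjusted p = 0.878), and it was -0.0087 without L-cDC1 replicate 3. Between L-cDC1 and L-cDC2 the difference was -1.67 (SE 0.31, adjusted p = 0.000656), and between M-cDC1 and M-cDC2 it was -0.45 (SE 0.31, adjusted p = 0.270), which limma-voom on recovered reads called (-4.91, adjusted p = 0.0202).

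Il21r averaged 7.62 ± 1.15 FPKM in L-cDC1 against 3.83 ± 0.85 FPKM in M-cDC1 (SD, n = 3 each), and the libraries given above did not overlap. The L minus M difference in cDC1 was 0.84 (SE 0.16, limma adjusted p = 0.0453). It was past the threshold in 5 of 18 alternatives and missed it in 13, with adjusted p from 0.0251 to 0.246. Among these 13 were median-of-ratios scaling (0.050) and the fits without L-cDC1 replicate 1 (0.0924) or 3 (0.132), M-cDC1 replicate 1 (0.0708) or 2 (0.225), L-cDC2 replicate 1 (0.0602) or 3 (0.0736) and M-cDC2 replicate 2 (0.0691) or 3 (0.0588), each an adjusted p from limma. In cDC2 the L minus M difference was -0.0048 with a 95% interval of -0.35 to 0.34.

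Il15ra averaged 2.52 ± 0.36 FPKM in L-cDC2 and 4.69 ± 1.49 FPKM in M-cDC2 (SD, n = 3 each). The ranges did not overlap, but the difference of -0.66 (SE 0.22) had a limma adjusted p of 0.220. In cDC1 it was 0.21 (SE 0.22, adjusted p = 0.825). Il2rg was likewise lower in every L-cDC2 than in any M-cDC2 library, with a difference of -0.18 (SE 0.12, adjusted p = 0.689), and differed by 0.17 (adjusted p = 0.722) in cDC1.

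Il7r differed between L and M by 0.02 (SE 0.25, limma adjusted p = 0.998) in cDC1, with a 95% interval of -0.52 to 0.55. In cDC2 the difference was 0.26 (SE 0.25, adjusted p = 0.809), with an interval of -0.28 to 0.80, and it was 0.0078 without L-cDC2 replicate 3, the highest of the 12 libraries. The intervals for Il4ra were -0.28 to 0.32 in cDC1 and -0.52 to 0.08 in cDC2. Those for Crlf2 were -0.55 to 0.41 in cDC1 and -0.46 to 0.50 in cDC2.

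Il2ra, the alpha chain of the high-affinity IL-2 receptor, did not pass the filter. It had 0.130, 0.211 and 0 FPKM in the L-cDC1 libraries, 0.0156, 0 and 0.00797 in M-cDC1, 0.110, 0.410 and 0.318 in L-cDC2 and 0.0214, 0.0110 and 0.0361 in M-cDC2. Every L-cDC2 library stood above every M-cDC2 library, and the cDC1 groups overlapped. The sums were 39 reads in L-cDC1 against 3 in M-cDC1, a ratio of 13.8 (4.38 to 69.7, counting error), and 99 reads in L-cDC2 against 8 in M-cDC2, a ratio of 11.6 (5.66 to 27.6). Tested without the filter it was not called (0.14, limma adjusted p = 0.842 in cDC1, and 0.32, adjusted p = 0.228 in cDC2).

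Counted over the family, 1 of 8 tested members was called between L and M in cDC1, where 0.394% of all genes were called (0.354% higher and 0.0402% lower), and the median difference was 0.19 beside 0.02 over all genes. In cDC2 2 of 8 were called, where 1.83% of all genes were called (1.04% higher and 0.788% lower), with a median of 0.01 beside 0.03. Both, Il2rb and Il9r, reached 1 FPKM in L libraries only, so they passed the filter through the libraries where they were high. This count, and the separations of these members in the next sentence, are therefore no evidence about the family. Without the filter Il2rb stayed called in cDC2 (limma adjusted p = 0.0271) and Il9r did not (0.0834). Libraries did not overlap for 2 members higher and 0 lower in L-cDC1, where 8.28% and 5.63% of genes were so separated, and for 2 higher and 2 lower in L-cDC2, where 9.96% and 6.92% of genes were. The interaction, in which the L minus M difference of cDC2 is taken from that of cDC1, was called by limma for 0 of 8 members and for 0.298% of all genes (0.193% higher and 0.105% lower), and by limma-voom for 0 of 8. At an unadjusted p under 0.05 there were 3: Il21r (0.85, adjusted p = 0.240), Il15ra (0.87, adjusted p = 0.415) and Il9r (-1.21, adjusted p = 0.415). The L minus M differences of these members were therefore not shown to differ between the subsets.

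**Figure D3:**
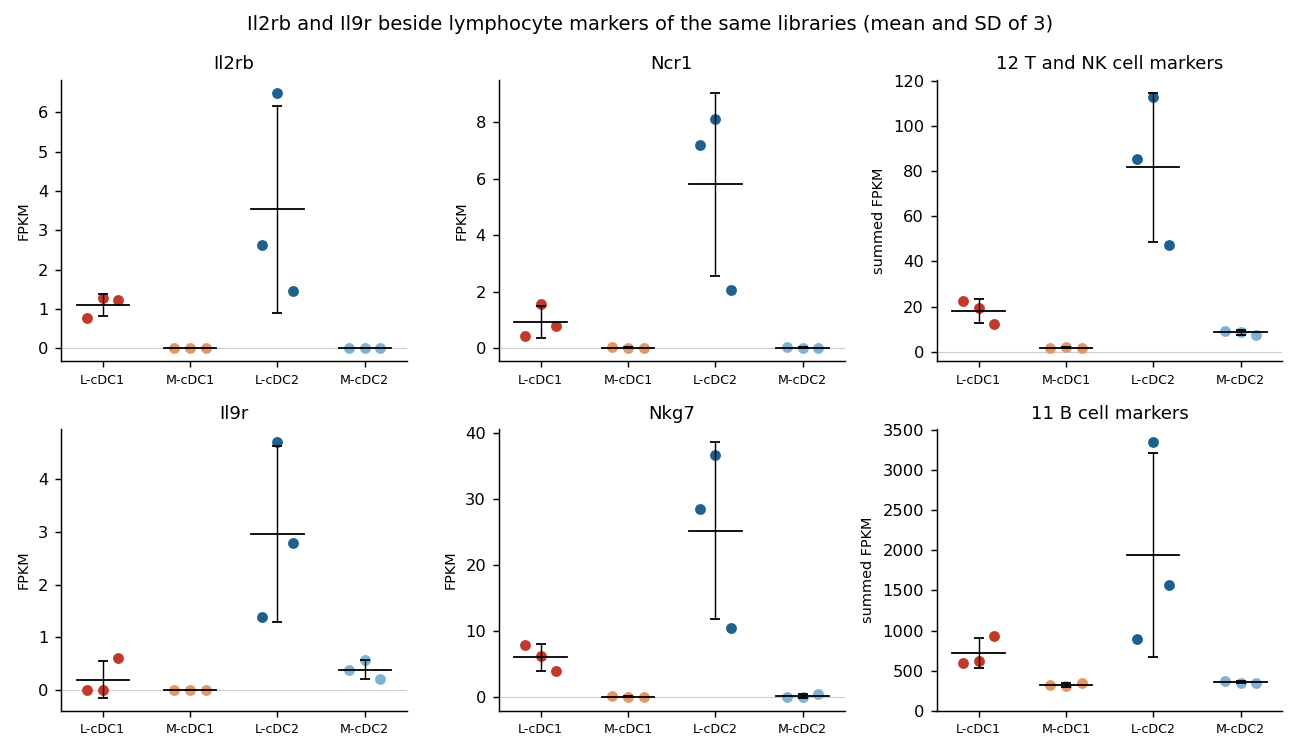
Level in FPKM of Il2rb and Il9r (left), of the NK cell markers Ncr1 and Nkg7 (middle) and the summed FPKM of 12 T and NK cell and 11 B cell markers (right) in the 3 libraries of each group, with mean and SD. Il2rb, Ncr1 and Nkg7 are at or near 0 in both M groups, all 4 genes are highest in L-cDC2 replicate 2, and both marker sums are higher in L than in M libraries of each subset.

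Summed markers of lymphocytes were higher in L than in M libraries of each subset, as Il2rb was in both subsets and Il9r in cDC2. In L-cDC1, where Il9r had reads only in replicate 3, the T and NK cell sum was 22.4, 19.5 and 12.4 FPKM in replicates 1 to 3. The B cell sum was 593, 625 and 937 FPKM there. The summed level of 12 T and NK cell markers was 12.4 to 22.4 FPKM in the L-cDC1 libraries, 1.51 to 2.12 in M-cDC1, 47.3 to 113 in L-cDC2 and 7.49 to 9.26 in M-cDC2. None of the 12 was at 0 in all libraries of an L group, while Cd3g, Trac and Klrb1c were at 0 in M-cDC1 and Cd3g, Trbc2 and Gzma in M-cDC2. Of 9 tested, 3 were called higher in L-cDC1 than in M-cDC1 (Trbc2, Nkg7 and Trac) and 6 in L-cDC2 than in M-cDC2 (Lck, Trbc2, Ncr1, Nkg7, Gzma and Trac). Limma-voom called 2 of the 9 in cDC1 and 6 in cDC2. Over all genes 0.354% were called higher by limma in L-cDC1 and 1.04% in L-cDC2. Ncr1, an activating receptor of NK cells and some innate lymphoid cells, had 0.446, 1.57 and 0.780 FPKM in the L-cDC1 libraries, 0.0289, 0 and 0 in M-cDC1, 7.20, 8.13 and 2.08 in L-cDC2, and 0.0265, 0 and 0 in M-cDC2. Its libraries were ordered much as those of Il2rb, with L-cDC2 replicate 2 highest and L-cDC2 replicate 3 lowest of that group. Nkg7, a granule protein of NK and cytotoxic T cells, had 28.5, 36.7 and 10.5 FPKM in L-cDC2 and 0, 0 and 0.508 in M-cDC2. It had 7.93, 6.23 and 3.94 FPKM in L-cDC1 and 0.146, 0 and 0 in M-cDC1. Within L-cDC1 Nkg7 was thus highest in replicate 1, where Il2rb was lowest (0.777 FPKM). The 6 innate lymphoid cell markers reported here, Ncr1 among them, summed to 0.789 to 1.9 FPKM in the L-cDC1 libraries, 0.103 to 0.223 in M-cDC1, 4.39 to 9.997 in L-cDC2 and 0.409 to 0.919 in M-cDC2, with Il1rl1 at 0 in both cDC1 groups and Il1rl1 and Il23r at 0 in L-cDC2. Of these 6 Ncr1 was the 1 tested, and it was called higher in L-cDC2 and not in L-cDC1. The B cell sums given above ran the same way, with 7 of 9 tested called higher in L-cDC1 and 8 of 9 in L-cDC2. Limma-voom called 2 of these 9 in cDC1 and 8 in cDC2. Iglc2 and Pax5 were at 0 in M-cDC1 and Pax5 at 0 in M-cDC2. The B cell and the T and NK cell sums were also higher in every L-cDC1 than in any M-cDC1 library, the comparison in which Il21r was called. The part of these cells in the Il2rb, Il9r, Il2ra and Il21r values was not tested. In RNA of sorted populations fewer cells of a type and less RNA per cell cannot be told apart.

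Markers of mature dendritic cells, 10 genes such as Ccr7 and Fscn1, summed to 146 to 175 FPKM in the L-cDC1 libraries, 97.7 to 125 in M-cDC1, 269 to 292 in L-cDC2 and 269 to 340 in M-cDC2, with none at 0 in any group. The L-cDC1 and M-cDC1 sums did not overlap, and their part in the Il21r values was not tested. Of the 9 tested 0 were called by limma between L and M in either subset, and 0 by limma-voom, with 4 at an unadjusted p under 0.05 in cDC1 and 1 in cDC2. The 8 monocyte and macrophage markers summed to 331 to 341 FPKM in the L-cDC1 libraries, 438 to 493 in M-cDC1, 316 to 471 in L-cDC2 and 1012 to 1220 in M-cDC2. Of 6 tested, 3 (Ccr2, Lyz2 and Csf1r) were called lower in L-cDC2, where 0.788% of all genes were. L-cDC2 was the group in which Il15ra was lowest, and Fcgr1 was at 0 in M-cDC1. The part of monocytes and macrophages in the Il15ra values was not tested.

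The genes with the levels most like each member, by Pearson correlation of log2(FPKM + 1) over the 12 libraries, differed between members. The libraries share depth and preparation and fall into subsets, so the values within the 6 cDC1 and the 6 cDC2 libraries stand beside the pooled ones and all are descriptions. For Il7r the first of the 5 closest genes was Hccs (0.98 over 12 libraries, 0.68 within cDC1 and 0.97 within cDC2). After it came Herc4 (0.98, with 0.60 and 0.84), Scel (0.98, with 0.42 and 0.79), Eps8 (0.98, with 0.51 and 0.93) and Prdx6 (0.98, with 0.28 and 0.92). For Il2rg the closest were Sirpa (0.998, with 0.81 and 0.42 within the subsets), the cDC2 surface marker, Abi3 (0.998, with 0.77 and 0.825) and Rgl1 (0.998, with 0.58 and 0.96). For Il21r they were Pirb (0.996, with 0.94 and 0.53), an inhibitory immunoglobulin-like receptor, Traf1 (0.995, with 0.94 and 0.45) and Akap13 (0.995, with 0.96 and 0.34). Il2rb was closest to Lax1 (0.97, with 0.95 and 0.97), Ncr1 (0.96, with 0.94 and 0.97) and Cd55 (0.96, with 0.88 and 0.999). Each set of 6 libraries still holds L and M libraries, and these genes and Il2rb were at or near 0 in both M groups. Their values within the subsets therefore also carry the difference between L and M. Among the genes closest to Il9r were Xkrx (0.94, with 0.07 and 0.99) and Hoxa5 (0.94, with 0.21 and 0.94), where the values within cDC1 rest on the Il9r reads of L-cDC1 replicate 3. Il4ra was closest to Madd (0.97, with 0.70 and 0.89), Pros1 (0.96, with 0.62 and 0.92) and Fcrl1 (0.96, with 0.795 and 0.92). Il15ra was closest to Polr2h (0.88, with 0.56 and 0.92), Gpr31a (0.87, with 0.64 and 0.92) and Csf2rb2 (0.86, with 0.65 and 0.84). Crlf2 was closest to Tmbim6 (0.91, with 0.84 and 0.46), H2-T-ps (0.90, with 0.98 and -0.33) and Mfge8 (0.89, with 0.81 and 0.51). Between members, Il7r and Il2rg reached 0.94 over the 12 libraries but -0.14 within cDC1 and -0.49 within cDC2, so their likeness lay between the subsets. Il2rb and Il9r reached 0.79, with 0.51 within cDC1 and 0.92 within cDC2.

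Of the cytokines that these receptors bind, with Tslp and Il13, 1 of 8 genes passed the filter. Il15, whose product binds the Il15ra chain, averaged 11.3 ± 2.26 FPKM in the L-cDC1 libraries, 15.3 ± 2.69 in M-cDC1, 2.54 ± 0.75 in L-cDC2 and 3.32 ± 0.60 in M-cDC2 (SD, n = 3 each). Its cDC1 minus cDC2 difference was 1.80 (SE 0.20, limma adjusted p = 8.11e-06) among L and 1.91 (SE 0.20, adjusted p = 4.48e-06) among M libraries. The L minus M differences were -0.41 (adjusted p = 0.523) in cDC1 and -0.30 (adjusted p = 0.691) in cDC2. Among L libraries Il15 and Il15ra were thus both higher in cDC1, whereas among M libraries Il15 was higher and Il15ra was not called. Il2, Il4, Il7, Il9, Il13, Il21 and Tslp were not tested, and Il9, Il13 and Il21 were at 0 in all 12 libraries.

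**Figure D4:**
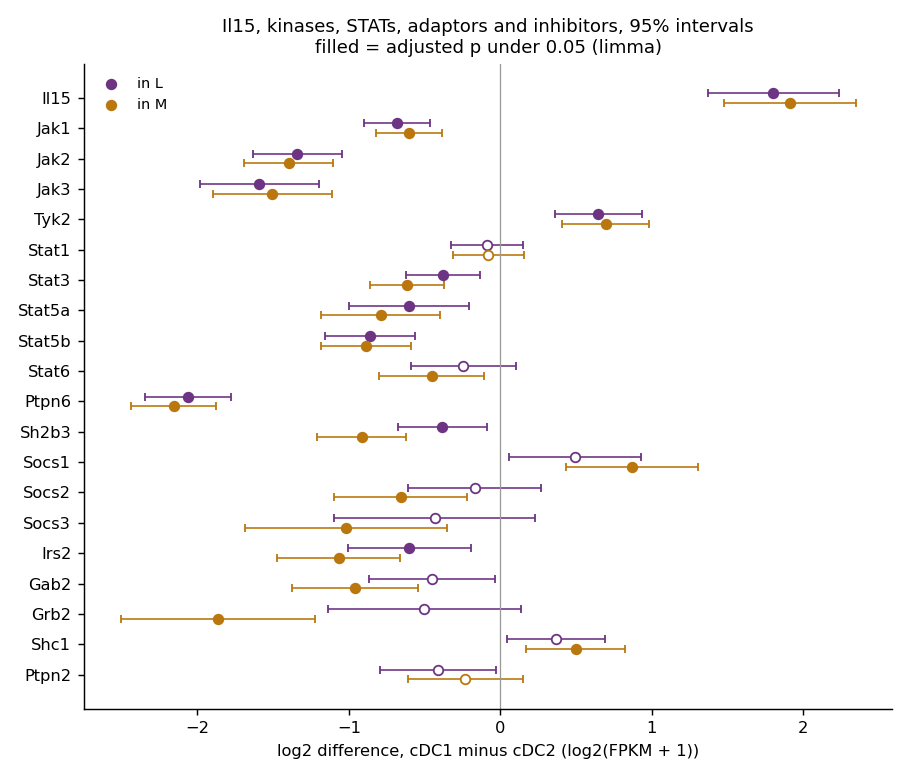
Log2 difference, cDC1 minus cDC2 (x axis, log2(FPKM + 1) scale), of Il15 and of kinases, STATs, adaptors and inhibitors of the pathway, with 95% limma intervals, for L and for M libraries. Filled points have an adjusted p under 0.05, with Il15 and Tyk2 called higher and Jak1, Jak2, Jak3, Stat5b and Ptpn6 called lower in cDC1 in both.

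Most of the kinases and STATs below the receptors were called between the subsets. Of 9 genes tested, 1 was called higher and 6 lower in L-cDC1 than in L-cDC2, and 1 higher and 7 lower in M-cDC1 than in M-cDC2, with medians of -0.60 and -0.62. Over all genes 39.5% were called among L and 38.1% among M libraries, with medians of -0.19 and -0.18. Jak3, the kinase of the gamma chain, averaged 5.79 ± 0.68 FPKM in the L-cDC1 libraries, 5.8 ± 0.70 in M-cDC1, 19.7 ± 4.1 in L-cDC2 and 18.5 ± 4.1 in M-cDC2 (SD, n = 3 each). Its difference was -1.59 (SE 0.18, limma adjusted p = 1.01e-05) among L and -1.5 (SE 0.18, adjusted p = 1.75e-05) among M libraries. Jak1, the kinase of the partner chains, differed by -0.68 among L and -0.60 among M libraries, Jak2 by -1.34 and -1.40, and Stat5b by -0.86 and -0.89, all called. Tyk2 was the gene called higher, by 0.65 and 0.70. Between L and M 0 of 9 were called by limma in either subset, also with limma-voom. At an unadjusted p under 0.05 there was 1, Stat3, with a difference of 0.30 (adjusted p = 0.378) in cDC1, where its L and M libraries did not overlap.

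Of 11 adaptors and feedback inhibitors 10 were tested. Among L libraries 3 were called lower in cDC1 (Ptpn6, Sh2b3 and Irs2), and among M libraries 2 were called higher and 7 lower, with medians of -0.42 and -0.94. The 3 of 10 among L libraries are below the 39.5% of all genes called there, and 38.1% were called among M libraries. Ptpn6, the phosphatase SHP-1 that restrains cytokine signals, averaged 141 ± 26.5 FPKM in the L-cDC1 libraries, 134 ± 22.9 in M-cDC1, 586 ± 10.6 in L-cDC2 and 595 ± 20.6 in M-cDC2 (SD, n = 3 each). It differed by -2.06 (SE 0.13, limma adjusted p = 2.53e-08) among L and -2.16 (SE 0.13, adjusted p = 1.65e-08) among M libraries. The L calls of Sh2b3, the adaptor LNK, and Irs2, an insulin receptor substrate used by the IL-4 receptor, were lost with median-of-ratios scaling (limma adjusted p = 0.302 for Sh2b3 and 0.0832 for Irs2), with quantile normalization and with limma-voom, and that of Sh2b3 with no filter as well. Both were also lost without L-cDC1 replicate 1 (Sh2b3 0.158, Irs2 0.0520) or 2 (Sh2b3 0.0800, Irs2 0.0583) and without L-cDC2 replicate 2 (Sh2b3 0.0815, Irs2 0.103), and Sh2b3 without L-cDC2 replicate 1 (0.0755) or 3 (0.0932), all adjusted p from limma. Between L and M 0 of the 10 were called by limma in either subset, with 3 at an unadjusted p under 0.05 in cDC1 and 0 in cDC2, and limma-voom called 1 in cDC1 and 0 in cDC2. The smallest p in cDC1 belonged to Grb2, an adaptor to the Ras pathway, with 47.6 ± 7.95 FPKM in L-cDC1 against 19.3 ± 11.3 FPKM in M-cDC1, a difference of 1.40 (SE 0.30, adjusted p = 0.0637). That difference was called with limma-voom (1.43, adjusted p = 0.0418) and without M-cDC1 replicate 1 (1.82, adjusted p = 0.00245). Sh2b3 followed with 43.7 ± 7.36 FPKM in L-cDC1 against 28.2 ± 4.48 FPKM in M-cDC1 (0.61, adjusted p = 0.0761, and 0.0373 without L-cDC1 replicate 1).

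Of 13 survival and response genes of these receptors 10 were tested, and Fcer2a was the only one called between L and M, in both subsets. Fcer2a, the low-affinity IgE receptor CD23 and a known IL-4 response gene, averaged 2.07 ± 0.46 FPKM in the L-cDC1 libraries, 0.00971 ± 0.00841 in M-cDC1, 11.2 ± 2.81 in L-cDC2 and 1.56 ± 0.56 in M-cDC2 (SD, n = 3 each). The difference was 1.59 (SE 0.23, limma adjusted p = 0.00491) in cDC1, a call lost with no filter (adjusted p = 0.0581), and 2.24 (SE 0.23, adjusted p = 8.42e-05) in cDC2. Fcer2a is also on the B cell list, whose sums are higher in L libraries, and their part in it was not tested. At an unadjusted p under 0.05 there were 2 of the 10 in cDC1 and 3 in cDC2, Fcer2a among both. The others were Bcl2l1 in cDC1 (0.45, limma adjusted p = 0.462), and Pim2 (0.67, adjusted p = 0.285) and Myc (-0.52, adjusted p = 0.365) in cDC2. The L and M libraries of each did not overlap in that subset. Between subsets 2 of the 10 were called higher and 2 lower in L-cDC1, and 3 higher and 3 lower in M-cDC1, with medians of 0.10 and -0.11, where 39.5% and 38.1% of all genes were called. The 4 of 10 called among L libraries are near that share. Cd86, a costimulatory ligand of T cells, was higher in cDC1 by 1.88 among L and 2.06 among M libraries.

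Other chains of class I cytokine receptors numbered 22, of which 13 were tested. Between L-cDC2 and M-cDC2, 2 were called lower, where 0.788% of all genes were. Csf2rb2, a beta chain of the IL-3 receptor in the mouse, averaged 3.10 ± 0.73 FPKM in L-cDC2 and 7.48 ± 0.57 FPKM in M-cDC2 (-1.06, limma adjusted p = 0.00261). Csf3r, the G-CSF receptor, averaged 2.21 ± 0.78 FPKM in L-cDC2 and 8.27 ± 3.15 FPKM in M-cDC2 (-1.49, adjusted p = 0.00831), a call lost without M-cDC2 replicate 2 (adjusted p = 0.0598) and with a pseudocount of 0.1 (adjusted p = 0.106). The monocyte and macrophage marker sums given above were also lower in L-cDC2 than in M-cDC2. In cDC1 the sums ran from 330.7 to 341.3 FPKM for L and from 438.5 to 493.2 for M libraries. Csf2rb2 averaged 9.41 (L) and 8.97 (M) FPKM there. Csf3r averaged 0.0097 (L) and 0.0094 (M) FPKM in cDC1, from 2 reads in each group, too few to show a difference. The part of monocytes and macrophages in either gene was not tested. Il27ra, the IL-27 receptor chain, had the smallest p of this list in cDC1, with means of 1.63 FPKM in L-cDC1 against 0.266 FPKM in M-cDC1 (1.05, adjusted p = 0.129). There 0 were called by limma or by limma-voom, and Il27ra was the 1 with an unadjusted p under 0.05. Between subsets 1 was called higher and 6 lower in L-cDC1, and 0 higher and 8 lower in M-cDC1, with medians of -0.50 and -0.65, where 39.5% and 38.1% of all genes were called and their medians were -0.19 and -0.18. Il12rb2, a chain of the IL-12 receptor, differed by -1.34 among L and -1.22 among M libraries, and Il31ra, the IL-31 receptor chain, by -1.88 and -1.96, all called.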

How the data were processed

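RNA of 12 libraries of sorted mouse spleen cDCs was analysed. Per the labels' protocols, RNA was extracted with a column kit and made into libraries with SMART-Seq HT and Nextera XT kits. The deposited values are FPKM, made by the authors. Per the submitters' processing notes, which give no roles, the tools were DESeq2 1.20.0, featureCounts 2.0.1 and STAR 2.7.9a, with cutadapt 3.7, Trimmomatic 0.39 and Trim Galore 0.6.7 beside them. The build they name, GRCh38, is a human one, although the table holds mouse genes. Every deposited FPKM value was a whole multiple of 1 read within 0.01 read (100% of values), which gave the reads behind each value.

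The members and gene lists were chosen with earlier results of these data known. Genes that reached 1 FPKM in 3 or more libraries were tested with limma 3.58.1 (R 4.3.3, intensity trend) on log2(FPKM + 1), with 1 mean per group over all 12 libraries. Benjamini-Hochberg adjustment covered the 12434 genes of each contrast. The threshold for a call was an adjusted p of 0.05. All 9 members are named, with up to 4 genes of each list with the smallest p per contrast and the 5 (Il7r) or 3 genes most like each member, except 1 gene that is not reported here and was left out of its marker list. The fitting script was tested on simulated data. Alternatives were a pseudocount of 0.1, no filter, median-of-ratios scaling, quantile normalization, the replicate number as a block, limma-voom on recovered reads and leaving out each library in turn.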

Additional observations from a re-analysis of the deposited data

How the results depend on the processing

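Over the 8 tested members in 5 contrasts, 655 of 720 alternative values kept their direction and side of the threshold, 30 lost a call, 8 gained one and 27 changed sign. The sign changes were all of uncalled differences. The largest of these in the main fit were the Il7r interaction (-0.24) and Il9r L minus M in cDC1 (0.22). The first changed sign only without L-cDC2 replicate 3 and the second only without L-cDC1 replicate 3. For Il4ra, L minus M in cDC1 was -0.0079 with median-of-ratios scaling, -0.031 with quantile normalization and -0.013 with limma-voom, and between -0.054 and 0.16 with a library left out. For Il21r, L minus M in cDC2 was 0.016 with quantile normalization and -0.097 to 0.12 with a library left out. For Crlf2, L minus M in cDC2 was -0.0099 with median-of-ratios scaling, -0.014 with quantile normalization and -0.010 with limma-voom, and -0.072 to 0.069 with a library left out. With a library left out, L minus M in cDC1 ran from -0.081 to 0.12 for Il7r, -0.0087 to 0.33 for Il9r and -0.33 to 0.15 for Crlf2. The interaction ran from -0.40 to 0.0082 for Il7r and -0.35 to 0.13 for Crlf2, and cDC1 minus cDC2 in M from 0 to 0.0076 for Il2rb and -0.14 to 0.24 for Il15ra.

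Over all genes, 49 were called between L and M in cDC1, against 80 with a pseudocount of 0.1, 14 with no filter and 24 to 102 with a library left out. In cDC2 227 were called, and 146 to 232 with a library left out, the lowest without M-cDC2 replicate 2. The interaction had 37, against 21 with a pseudocount of 0.1, 9 with limma-voom and 10 to 38 with a library left out. The cause was not tested. With 1 library left out the remaining pair was assumed to vary like the other groups.

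Called members in cDC1 L minus M numbered 0 with no filter, with either other scaling and with the replicate block, 0 to 1 with a library left out, 1 with limma-voom (Il2rb in place of Il21r) and 2 with a pseudocount of 0.1. In cDC2 they numbered 1 to 2 under every alternative, and Il2rb was called under all 18. Il7r, Il2rg and Il21r were called lower in cDC1 among L and among M libraries under all 18.

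Replicate numbers were not taken to pair the libraries, since no label says so and 3 of 18 same-numbered pairs, not all, had deviations correlated above 0.1 (-0.01 to 0.16). As a hint from the data, 11 of 12 libraries correlated best with their own number. With the replicate block 45, 233, 25, 4952 and 4754 genes were called in L minus M in cDC1 and cDC2, the interaction, and cDC1 minus cDC2 in L and M, against 49, 227, 37, 4913 and 4736. Among members the block moved Il21r in cDC1 L minus M to the other side of the threshold (limma adjusted p = 0.0601), as it did Crlf2 in cDC1 minus cDC2 in L (0.0460), and changed no other call. Limma-voom with edgeR scaling was not run. The limma-voom fit with median-of-ratios scaling was chosen after seeing the data. Depth limits Il7r in cDC1, Il2ra, Il9r in cDC1 and Il2rb in M groups, at 0 to 57 reads a library.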
